A study of Mus musculus with 38 samples.

Results

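The genes described here are 10 enzymes of purine and folate metabolism: Ppat, Gart, Pfas, Paics, Adsl, Atic, Impdh2, Mthfd1, Mthfd2 and Shmt2. They were named as a list, with earlier results of these data known, and each was matched by symbol to 1 Ensembl identifier among the 55487 genes of each count table. All 10 passed the filter on low counts in every fit. The list was chosen by the levels of hypoxic against normoxic BV2 cells grown alone, where Gart had been seen among the most lowered genes, so the values of that comparison are given as a description, with no test.

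The study measured poly(A) RNA in mouse cells after 16 h in normoxia (21% oxygen) or hypoxia (less than 0.1% oxygen). BV2 is a murine microglial line, GL261 is a murine glioma line that stably expressed pEGFP-N1, and BMDM are primary macrophages grown from wild-type bone marrow. BV2 and GL261 cells were sequenced after growth alone or together in direct contact, and BMDM after growth alone or with GL261 cells, each at both oxygen levels. In a separate experiment BV2 cells and BMDM received the vehicle DMSO in normoxia or hypoxia, or, in hypoxia, the histone deacetylase inhibitor panobinostat at 10 nM. The labels list no panobinostat group in normoxia. Of the 18 groups, the BMDM co-cultures at either oxygen level had 3 libraries and all others 2. For BV2 and GL261 the labels call these biological replicates; for BMDM and the panobinostat experiment nothing says whether cultures were separate, so p-values there measure only the spread between these libraries. BV2 and GL261 are each 1 line, the 2 lines were co-seeded at 1 BV2 cell to 2 GL261 cells and BMDM at 1 to 1, and how the cells were separated afterwards is not given in the sources used here.

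De novo synthesis builds the purine ring step by step on a sugar phosphate, PRPP, and ends in IMP, from which AMP and GMP are made. Ppat, the amidotransferase, takes the first committed step. Gart, a trifunctional enzyme, Pfas, Paics and Adsl carry the intermediate on, Atic closes the ring, Adsl acts again on the way to AMP, and Impdh2 takes IMP towards GMP. The ring takes carbon from 10-formyl-tetrahydrofolate, which Gart and Atic use and which Mthfd1 makes in the cytosol. In the mitochondrion Shmt2 splits serine and passes its carbon to folate, and Mthfd2 oxidises that folate on the way to formate, which Mthfd1 can use. Mthfd2 and Shmt2 are known as targets of the stress factor ATF4, and many enzymes of the pathway as targets of Myc.

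The genes lie apart in the genome, except for 1 pair (positions in GRCm38). Paics, on the plus strand of chromosome 5 from 76951307 to 76967509, and Ppat, on the minus strand from 76913249 to 76951578, start head to head, and their first exons overlap by 272 bases. The sources used here do not state whether strand was used in counting, so reads from that overlap, 6.15% of the exonic length of Ppat and 8.67% of that of Paics, cannot be assigned to 1 gene with certainty. Impdh2 on chromosome 9 shares 34.9% of its 75-base words with the pseudogene Impdh2-ps, which had at most 80 counts in any library. Gart on chromosome 16 overlaps an antisense transcript, Gm15964, over 19.7% of its exonic length, and Gm15964 had at most 134 counts. The levels of Impdh2 and Gart carry that uncertainty.

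Promoters are shown for 4 genes that stand for the patterns below: Gart, with the largest fall in BV2 cells, Atic, which was lower in hypoxia in all 3 cell types grown alone, and Mthfd2 and Shmt2, which rose in GL261 cells. Each run is the 250 bases before the RefSeq start in GRCm38.p6, 5′ to 3′ on the strand of the gene, and capitals mark the motifs searched on both strands.
Gart, chr16:91646973-91647222, minus strand: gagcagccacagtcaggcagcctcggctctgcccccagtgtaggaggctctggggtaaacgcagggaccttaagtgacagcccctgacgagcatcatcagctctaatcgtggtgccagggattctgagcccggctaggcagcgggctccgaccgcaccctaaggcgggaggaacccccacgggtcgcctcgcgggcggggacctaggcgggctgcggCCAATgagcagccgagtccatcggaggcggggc
Atic, chr1:71556906-71557155, plus strand: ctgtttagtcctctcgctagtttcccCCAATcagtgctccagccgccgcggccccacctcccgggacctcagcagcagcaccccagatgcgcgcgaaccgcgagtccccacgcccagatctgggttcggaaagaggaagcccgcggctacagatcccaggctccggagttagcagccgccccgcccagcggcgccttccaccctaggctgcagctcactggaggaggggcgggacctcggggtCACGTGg
Mthfd2, chr6:83317605-83317854, minus strand: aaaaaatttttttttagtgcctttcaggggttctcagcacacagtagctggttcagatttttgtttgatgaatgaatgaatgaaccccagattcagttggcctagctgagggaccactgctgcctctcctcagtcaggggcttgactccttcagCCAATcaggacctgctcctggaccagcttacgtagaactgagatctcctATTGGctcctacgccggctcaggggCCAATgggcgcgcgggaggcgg
Shmt2, chr10:127522445-127522694, minus strand: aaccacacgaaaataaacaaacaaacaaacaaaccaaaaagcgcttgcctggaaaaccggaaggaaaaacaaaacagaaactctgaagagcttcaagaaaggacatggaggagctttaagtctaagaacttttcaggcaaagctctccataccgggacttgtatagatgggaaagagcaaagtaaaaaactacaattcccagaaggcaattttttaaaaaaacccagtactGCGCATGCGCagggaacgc

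RefSeq promoters were matched for 9 of the 10 genes, and Pfas had no entry. The E-box CACGTG, the letters that Myc and its partners are known to bind, stood in the windows of Atic, Paics and Impdh2, and in 6.02% of 32851 promoters of the same length. The letters GCGC, any 1 base and TGCGC in a row, known for NRF1, stood in those of Ppat and Shmt2 and in 3.74% of all. CCAAT was found in Gart, Atic, Paics, Mthfd1 and Mthfd2, 3 times in Mthfd2, and in 33.8% of all. TGATGNAA, written for the element that ATF4 binds, stood in none of the 9 windows and in 3.45% of all. These are matches of letters in 1 window, and no motif overlapped another in the sequences printed. Annotated UTRs of Ppat cover 217 bases of the Paics window, and those of Paics 241 bases of the Ppat window. Those of Impdh2 and Atic cover 150 and 6 bases of their own windows. Matches there can lie in transcribed sequence, as the E-boxes of Impdh2 and, for the most part, Atic do.

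Libraries held 9634700 to 27238933 counts, and levels are given in CPM, counts scaled to a common library total with the TMM factors of edgeR, unless plain CPM (scaled to the library total alone) is named. Myeloid markers had summed levels of 3219 to 5933 plain CPM in BV2 libraries, 1309 to 27820 in BMDM and at most 63.01 in GL261, where glial and glioma markers summed to 1660 to 2965. BV2 libraries expressed 3 or 4 of 6 microglia markers above 1 plain CPM, with Sall1, Siglech or both at 0 in every BV2 group. The BMDM libraries of the panobinostat experiment stand apart. Fibroblast and endothelial markers summed to 1577 to 13480 plain CPM there, nearly all from the collagen gene Col1a1 (mean 12930 plain CPM in normoxia with DMSO, 4962 in hypoxia with DMSO, 8078 with panobinostat), against at most 422.4 in the BMDM of the co-culture experiment. The myeloid receptor Csf1r averaged 2719, 1484 and 433.2 plain CPM in the same 3 groups. Transcripts of the partner cell, estimated from genes expressed in the partner alone, made up 0.568% to 2.36% of BV2 co-culture libraries, 0.207% to 0.916% of GL261 and 1.27% to 6.38% of BMDM, with the highest shares in the BMDM libraries numbered 3.

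In normoxic BV2 cells all 10 genes were well expressed, and their order by level per kilobase of exon ran from Impdh2 (134 ± 13 CPM per kb, SD, n = 2) and Shmt2 (117 ± 12.1) through Paics (97.1 ± 6.24) down to Ppat (24.0 ± 1.08) and Pfas (20.6 ± 1.92). Exon length was the union over all annotated transcripts, such as 7985 bases for Atic and 3077 for Impdh2. The order depends on that length and need not be the order of mRNA levels. The gap between Impdh2 and Shmt2 was within the sum of their SDs, while every other neighbouring pair in this order lay further apart than that sum. In normoxic GL261 cells Paics led with 160 ± 0.254 CPM per kb, ahead of Shmt2 (98.9 ± 3.30) and Impdh2 (95.3 ± 4.28), which did not differ beyond their spread, and Pfas was again lowest (13.2 ± 0.0215). In BMDM grown alone in normoxia Impdh2 (36.2 ± 3.93), Paics (35 ± 4.14) and Shmt2 (34.9 ± 0.595) lay within their spread of each other at the top, and Ppat was lowest at 2.67 ± 0.0490 CPM per kb.

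Normoxic BV2 and normoxic GL261 cells grown alone were set side by side in 1 fit. These BV2 libraries are among those that served to choose the list, so the differences are a description, with no test. Atic lay furthest apart, at 426 ± 1.58 CPM in BV2 against 101 ± 0.0407 in GL261 (log2 difference 2.08), followed by Mthfd1 (1.75) and Gart (1.52). Paics alone was on the lower side in BV2, at 304 ± 18.8 against 462 ± 0.365 CPM (-0.60), and Ppat (0.27) and Shmt2 (0.36) lay nearest to 0 on the other side. With DMSO in normoxia, 8 of the 10 were higher in BV2 than in BMDM, where 44.2% of all genes were called, 17.1% as higher, and the largest difference was that of Ppat, 67.3 ± 20.1 against 16.3 ± 5.00 CPM (log2 2.04, SE 0.41, edgeR adjusted p = 0.00278). Paics (0.71) and Mthfd2 (0.89) did not pass, although Mthfd2 did with library totals alone, with no filter beyond 1 count, with a mean of at least 5 CPM, with DESeq2 and with only the groups compared (adjusted p = 0.0180 to 0.0460), and the call of Gart (1.33) was lost without BMDM library 1 or BV2 library 2 (adjusted p = 0.0752 and 0.0734).

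**Figure D1:**
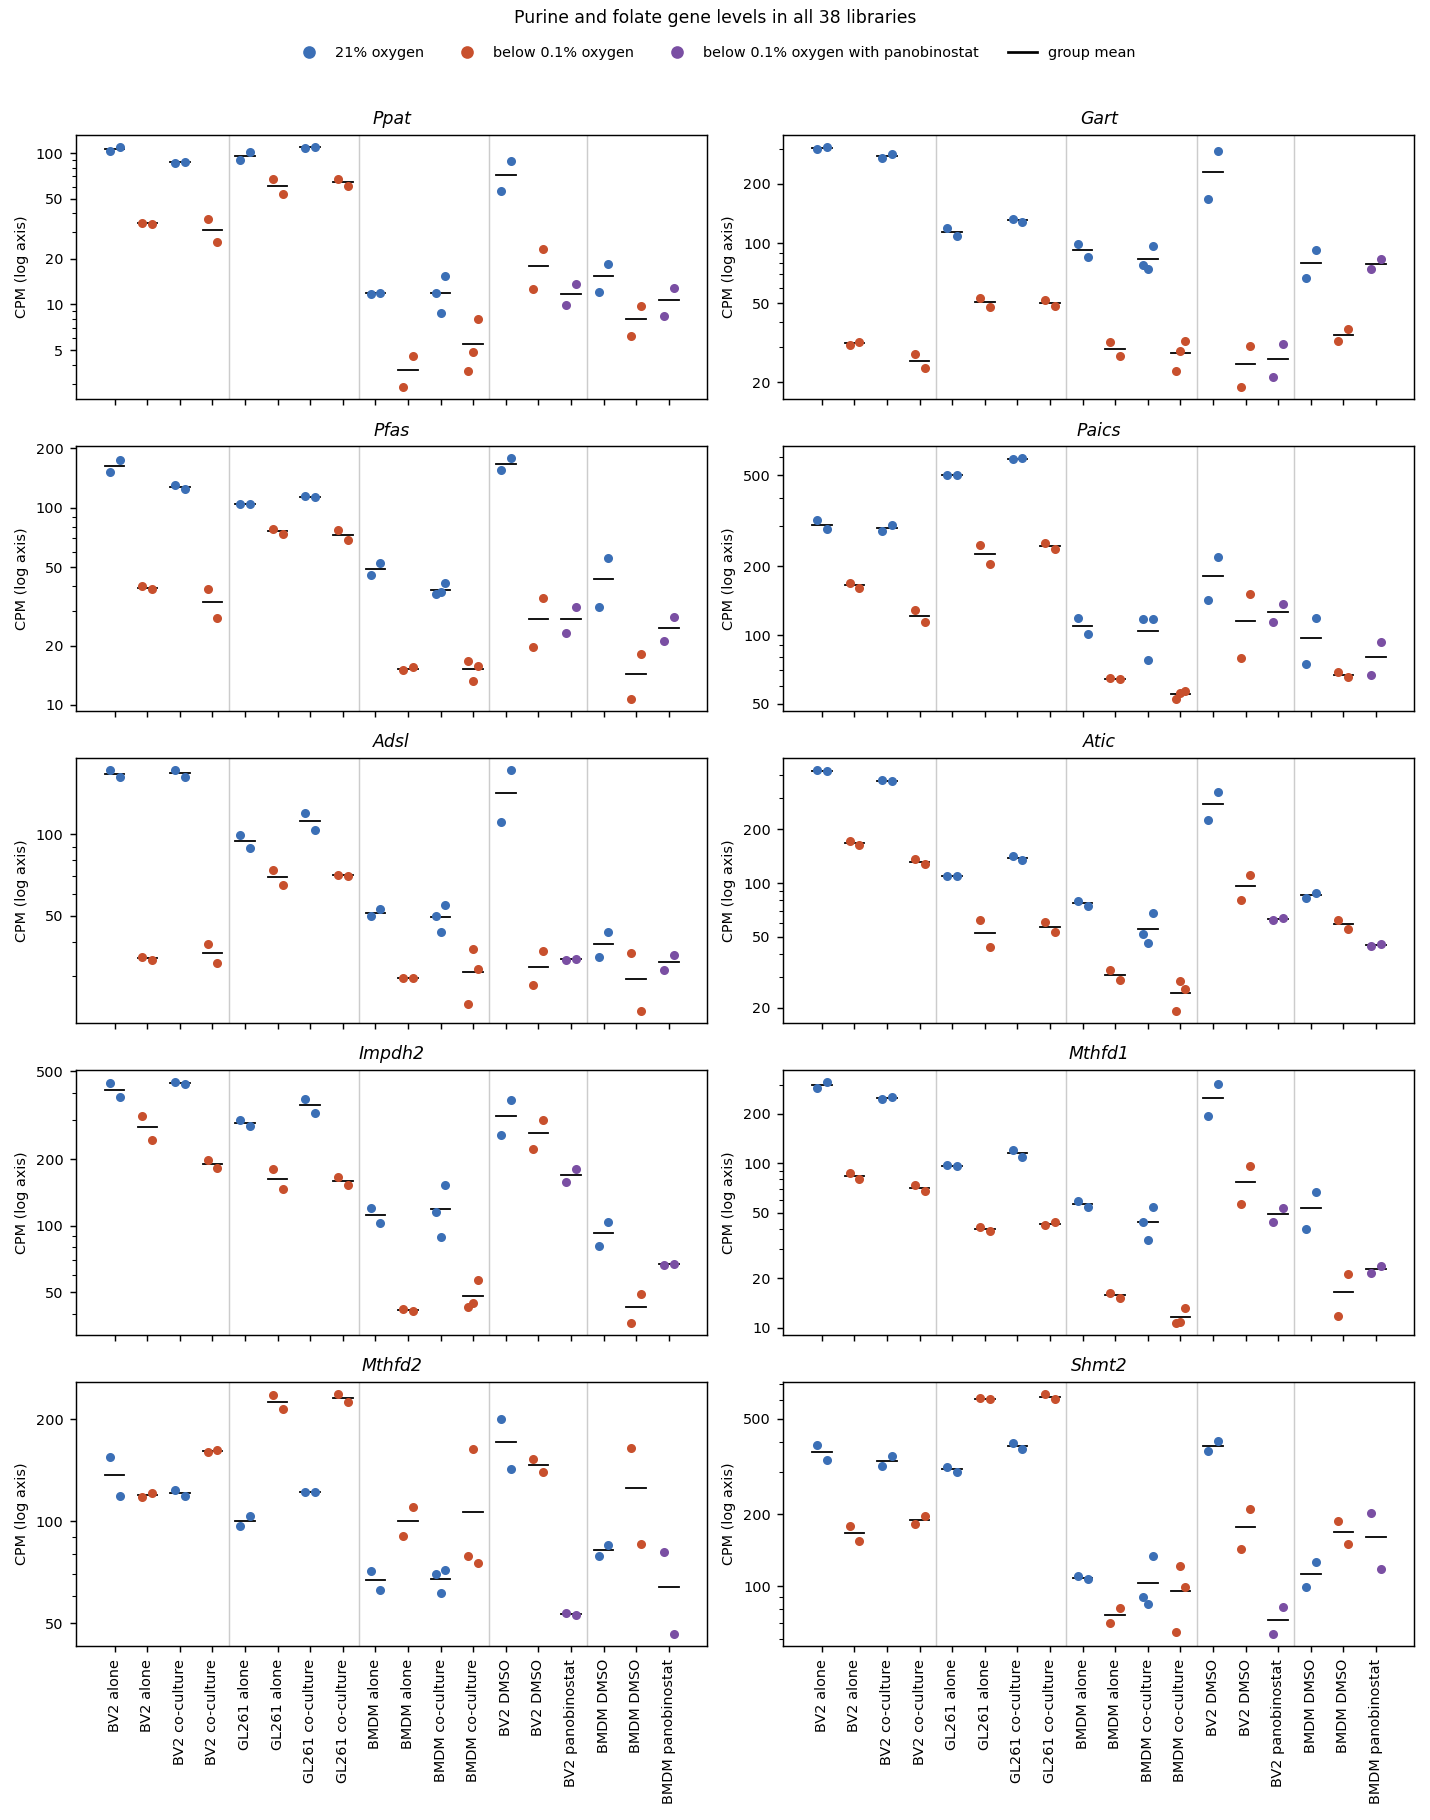
Level of each gene in CPM (log axis) in all 38 libraries, one panel a gene. Points are libraries coloured by oxygen and panobinostat, black bars are group means, and vertical lines separate the cell types and experiments, each scaled in its own fit. Gart in BV2 lies at 298 and 308 CPM in normoxia and at 30.9 and 32.1 in hypoxia when grown alone, while Shmt2 in GL261 is higher in hypoxia than in normoxia in all libraries.

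The next comparisons ask how 16 h of hypoxia changed these transcripts. In BV2 cells grown alone, which served to choose the list, all 10 values were on the lower side in hypoxia, given as a description with no test. Among all genes tested 61.9% were called, 31.0% as lower. Gart stood at 298 and 308 CPM in normoxia and at 30.9 and 32.1 in hypoxia, a 9.62-fold difference (log2 -3.27, SE 0.12), the 24th lowest of 14432 genes. Adsl was at 172 and 163 CPM against 35.2 and 34.4 (log2 -2.27), and Pfas at 153 and 174 against 40.1 and 38.6 (-2.05). Mthfd1 (-1.84), Ppat (-1.63), Atic (-1.34) and Shmt2 (-1.13) were next, followed by Paics (-0.89) and Impdh2 (-0.56). Mthfd2 overlapped between the groups, at 155 and 119 CPM in normoxia and 118 and 122 in hypoxia. The smallest difference was thus that of Mthfd2 (-0.19), and the next smallest that of Impdh2.

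BV2 cells taken from co-culture with GL261 gave the same test in libraries not used for the choice. There 9 genes fell and Mthfd2 rose (edgeR, adjusted p below 0.05, 67.3% of all genes called, 32.1% as lower and 35.2% as higher). Gart fell from 269 and 283 CPM to 27.7 and 23.6, or 10.7-fold (log2 -3.42, SE 0.12, edgeR adjusted p = 1.01e-11). Adsl fell from 172 and 163 to 39.4 and 33.4 CPM (log2 -2.20), Pfas from 130 and 124 to 38.6 and 27.7 (-1.94), and Mthfd1 from 248 and 253 to 74.2 and 67.5 (-1.82). No normoxic library overlapped a hypoxic one for any of the 10 genes. Overlap was not counted over all genes, so here and in the comparisons below it only describes these libraries.

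Atic (log2 -1.50), Ppat (-1.48), Paics (-1.27), Impdh2 (-1.22) and Shmt2 (-0.82) completed the fall. Mthfd2, the mitochondrial dehydrogenase, went from 123 and 119 CPM to 160 and 163 (log2 0.41, SE 0.12, edgeR adjusted p = 0.00744), a call that was lost without the normoxic or without the hypoxic co-culture library numbered 2 (adjusted p = 0.0505 and 0.0537). The partner part was at most 7.55% of a gene's level in hypoxic BV2 co-culture libraries, and with it taken off the log2 ratios of plain CPM were between -3.58 for Gart and 0.28 for Mthfd2. The median over all genes tested was 0.04 and that of the 10 was -1.49.

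The DMSO libraries repeated the comparison in BV2 cells of the separate experiment. In these, 7 of the 10 genes fell (37.5% of all genes called, 20.2% as lower), and 8 when the libraries were paired by number (49.0% called, 26.4% as lower), since Paics then passed. Gart stood at 167 and 292 CPM in normoxia and 18.9 and 30.3 in hypoxia (log2 -3.22, SE 0.35, edgeR adjusted p = 2.49e-04). Pfas stood at 155 and 178 against 19.7 and 35 CPM (-2.60), Adsl at 111 and 172 against 27.7 and 37.0 (-2.13) and Ppat at 55.9 and 88.1 against 12.7 and 23.2 (-2.0). In all these genes the library numbered 2 was the higher one of its group.

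Mthfd1 (log2 -1.70), Atic (-1.52) and Shmt2 (-1.13) fell too, with the call of Shmt2 lost without hypoxic library 1 (adjusted p = 0.0594). Paics overlapped between the groups, at 143 and 220 CPM against 79.4 and 152 (log2 -0.65, edgeR adjusted p = 0.132 and, paired, 0.00685). Impdh2 (-0.27, 95% interval -0.82 to 0.29) and Mthfd2 (-0.23, -0.71 to 0.25) overlapped as well.

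**Figure D2:**
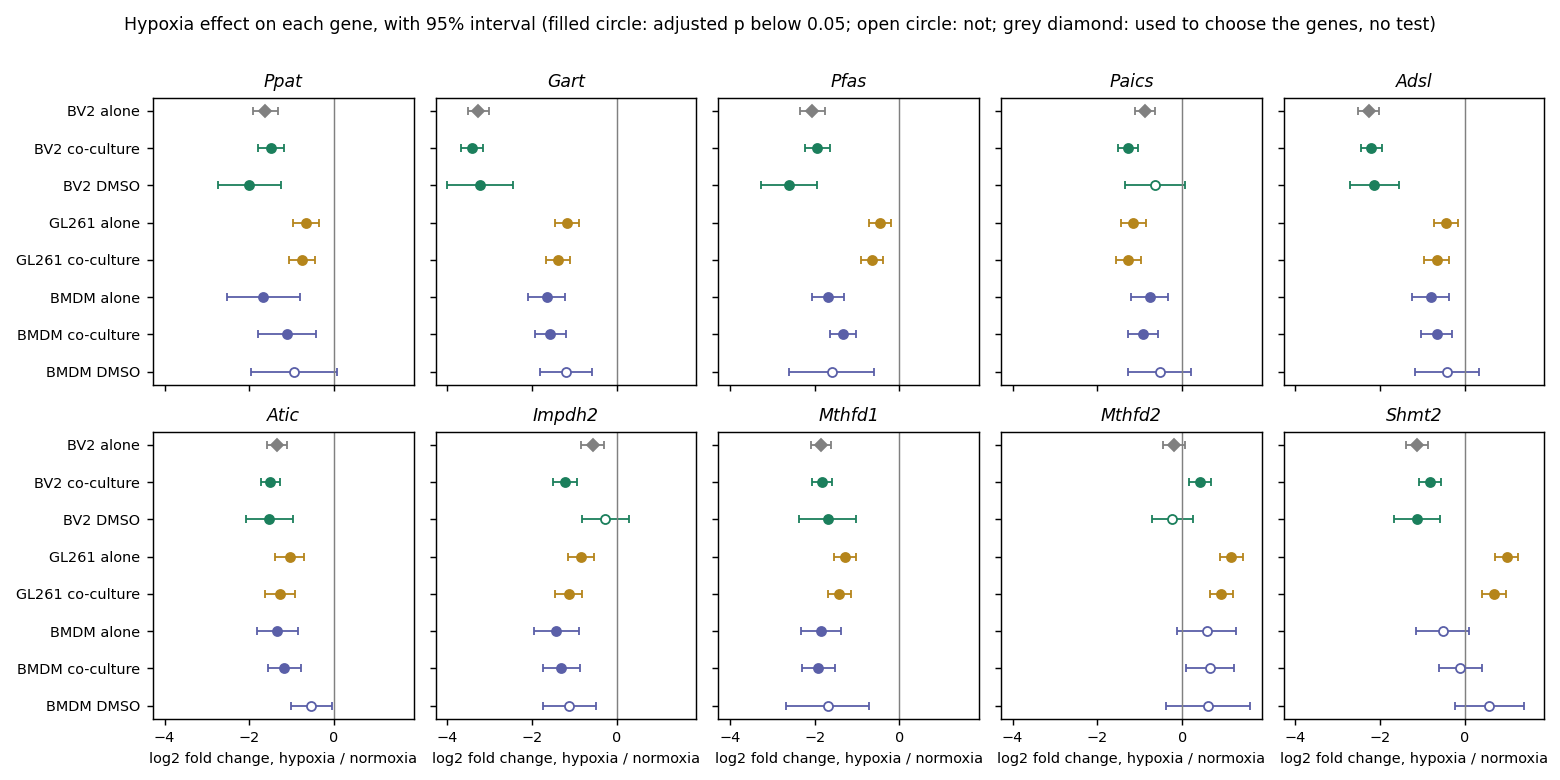
Log2 fold change of each gene between hypoxia and normoxia in 8 comparisons, one panel a gene, with 95% intervals from edgeR. Colours mark the cell type, filled circles passed at an adjusted p below 0.05, and grey diamonds mark BV2 grown alone, which served to choose the genes. Gart lies below 0 in all 8, from -3.42 to -1.18, whereas Mthfd2 and Shmt2 lie above 0 in GL261.

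In GL261 glioma cells the list split by role. When grown alone, the 8 genes of ring building, the GMP branch and cytosolic folate fell in hypoxia and the 2 mitochondrial enzymes rose (edgeR, adjusted p below 0.05, 44.6% of all genes called, 21.4% as lower and 23.2% as higher). Mthfd2 rose from 97 and 104 CPM to 235 and 214 (log2 1.16, SE 0.12, edgeR adjusted p = 3.78e-05). Shmt2 rose from 315 and 300 CPM to 609 and 608, or 1.98-fold (log2 0.98, SE 0.13, edgeR adjusted p = 1.25e-04). All hypoxic libraries were above all normoxic ones for this pair.

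Among those that fell, Mthfd1 went from 97.3 and 96.2 CPM to 40.8 and 38.7 (log2 -1.28, SE 0.12, edgeR adjusted p = 1.56e-05) and Gart from 120 and 109 to 53.4 and 47.9 (-1.18). Paics, the most abundant of the 10 per kilobase in this line in normoxia, went from 502 and 501 CPM to 248 and 204 (-1.15). Atic (-1.04), Impdh2 (-0.84), Ppat (-0.66), Pfas (-0.47) and Adsl (-0.44) followed, and the call of Adsl was lost without normoxic library 1 or hypoxic library 2 (adjusted p = 0.117 and 0.0905). In none of the 8 did the groups overlap.

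GL261 cells from co-culture with BV2 showed the same signs, with all 10 genes called (52.4% of all genes, 25.6% as lower and 26.8% as higher). Mthfd2 rose from 122 and 122 CPM to 238 and 225 (log2 0.93, SE 0.12, edgeR adjusted p = 9.36e-05) and Shmt2 from 395 and 373 to 637 and 604 (0.69, SE 0.13, adjusted p = 8.03e-04). Mthfd1 fell most (-1.42), then Gart (-1.39), Atic (-1.28), Paics (-1.27) and Impdh2 (-1.14). Ppat (-0.77), Adsl (-0.66) and Pfas (-0.65) fell least. The partner part was at most 0.726% of a gene's level in the hypoxic libraries.

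BV2 and GL261 were then set against each other by the difference of their log2 fold changes in hypoxia, tested in 1 fit. In co-culture, whose BV2 libraries did not serve to choose the list, the effect was lower in BV2 than in GL261 for 5 of the 10 genes (edgeR, adjusted p below 0.05, 37.0% of all genes called, 15.3% as lower, median of all genes 0.26). Gart differed most, by -1.91 (SE 0.17, edgeR adjusted p = 2.34e-07). Adsl (-1.41), Shmt2 (-1.38) and Pfas (-1.16) followed, and Ppat (-0.59, adjusted p = 0.0332) was no longer called without hypoxic BV2 co-culture library 2 (-0.38, adjusted p = 0.193). For Shmt2 the difference joins a fall in BV2 to a rise in GL261. Mthfd1 (-0.27, adjusted p = 0.183) and Mthfd2 (-0.38, adjusted p = 0.0943) did not pass, although both did with library totals as the only scaling (-0.45 and -0.56). Mthfd2 also passed with no filter beyond 1 count (adjusted p = 0.0447), a mean of at least 5 CPM (0.0385), DESeq2 (0.0482) and only the groups compared (0.0473), and without normoxic BV2 library 2 or hypoxic GL261 library 2. Mthfd1 passed without normoxic GL261 library 1 (adjusted p = 0.0490).

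In cells grown alone, where the BV2 values chose the list, the differences are a description: Shmt2 -2.01, Gart -1.99, Adsl -1.73, Pfas -1.49, Mthfd2 -1.26, Ppat -0.87 and Mthfd1 -0.46, with 37.4% of all genes called. Those of Paics (0.36, 95% interval 0.01 to 0.72), Impdh2 (0.38, -0.04 to 0.79) and Atic (-0.20, -0.60 to 0.20) were smaller. Mthfd2 was thus the gene whose difference changed most between the culture forms, from -1.26 alone to -0.38 in co-culture, and this change was not tested.

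**Figure D3:**
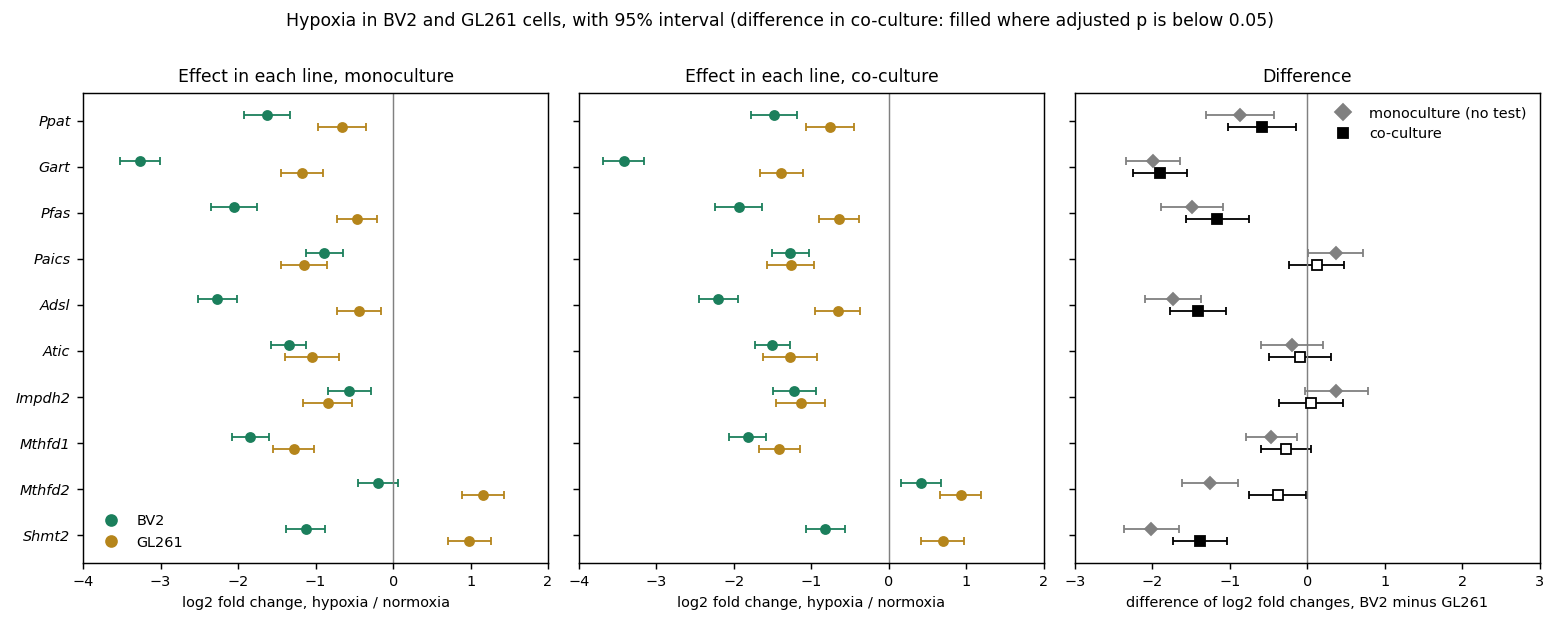
Hypoxia effect (log2 fold change, 95% interval) in BV2 and GL261 cells grown alone and in co-culture, and the difference of the effects, BV2 minus GL261, in both culture forms (grey diamonds alone, given with no test, and black squares in co-culture, filled where the adjusted p was below 0.05). Gart, Pfas, Adsl and Shmt2 lie left of 0 in both, while Paics, Atic and Impdh2 lie near 0.

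In BMDM, primary macrophages, of the co-culture experiment, 8 of the 10 genes were called lower in hypoxia, all but Mthfd2 and Shmt2. In cells grown alone these 8 fell (edgeR, adjusted p below 0.05, 23.9% of all genes called, 10.6% as lower). Mthfd1 went from 59.1 and 54.2 CPM to 16.3 and 15.2 (log2 -1.85, SE 0.21, edgeR adjusted p = 2.87e-04), Pfas from 45.8 and 52.6 to 15 and 15.6 (-1.69) and Gart from 99.2 and 86.0 to 31.9 and 27.0 (-1.65). Ppat, the amidotransferase at the head of the pathway, went from 11.7 and 12 CPM to 2.84 and 4.56 (-1.67, SE 0.39). The groups did not overlap for these 4 genes.

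Impdh2 (-1.42), Atic (-1.34), Adsl (-0.80) and Paics (-0.77) fell as well. The calls rest on few libraries: 5 to 7 of the 10 passed when any 1 library was left out, and Ppat, Paics and Adsl were the ones lost. Mthfd2 stood at 71.4 and 62.7 CPM against 90.8 and 110 (0.58, 95% interval -0.11 to 1.27) and Shmt2 at 110 and 107 against 70.1 and 80.8 (-0.52, -1.15 to 0.10). Neither passed with all BMDM groups in the fit, though both did with only the 4 libraries compared (edgeR adjusted p = 0.00562 and 0.00316).

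In BMDM from co-culture with GL261, 8 of 10 fell again (34.8% of all genes called, 17.3% as lower). Mthfd1 went from 43.7, 34.0 and 54.3 CPM to 10.7, 10.9 and 13.2 (log2 -1.92, SE 0.18, edgeR adjusted p = 3.82e-05). Gart went from 77.5, 74.2 and 97.5 CPM to 22.9, 28.8 and 32.4 (-1.56), and Pfas (-1.34), Impdh2 (-1.31), Atic (-1.18), Paics (-0.93) and Adsl (-0.67) followed, with no overlap of libraries. Mthfd2 had 69.7, 61.3 and 71.6 CPM in normoxia and 79.1, 164 and 75.5 in hypoxia (0.65, adjusted p = 0.0712), where library 2 stood far above the others. It passed with DESeq2 (0.67, adjusted p = 0.0350) and without hypoxic library 1 or 3 (adjusted p = 0.0301 and 0.0295). Shmt2 overlapped between the groups (-0.11, 95% interval -0.62 to 0.40), and its log2 ratio of plain CPM went from -0.24 to -0.53 with the GL261 part taken off.

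GL261 transcripts made up the largest part of a listed level for Ppat, the lowest of the 10 in normoxic BMDM. Ppat stood at 11.9, 8.72 and 15.3 CPM in normoxia and 3.61, 4.84 and 8.05 in hypoxia (log2 -1.11, SE 0.32, edgeR adjusted p = 0.0182), and the GL261 part was up to 46.9% of its level in hypoxia and up to 38.5% for the other genes. With that part taken off, the log2 ratio of plain CPM was -1.68 in place of -1.22. The call of Ppat was lost without normoxic library 3 (-0.90, adjusted p = 0.0694) or without hypoxic library 2 (-1.03, adjusted p = 0.0519), and that of Adsl with both libraries numbered 3 left out (-0.60, adjusted p = 0.0671).

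In the BMDM that received DMSO no gene of the list passed (0.483% of all genes called). With the libraries paired by number 4 fell (14.3% called, 6.40% as lower). DESeq2 without pairing also called 4 of the list, and 2241 of all genes. Mthfd1 stood at 39.8 and 66.9 CPM in normoxia and 11.7 and 21.4 in hypoxia (log2 -1.69, edgeR adjusted p = 0.0917 and, paired, 0.0227). Pfas stood at 31.6 and 55.9 against 10.7 and 18.2 (-1.60, paired 0.0210), Gart at 67.1 and 93.0 against 32.4 and 37.1 (-1.20, paired 0.0250) and Impdh2 at 80.8 and 104 against 36.4 and 49.1 (-1.12, paired 0.0293). The groups of these 4 genes did not overlap.

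Ppat (-0.95), Atic (-0.54), Paics (-0.53) and Adsl (-0.43) did not pass in either fit, nor did Mthfd2 (0.61, 95% interval -0.38 to 1.60) and Shmt2 (0.58, -0.24 to 1.40). Summed myeloid markers were 19390 to 27820 plain CPM in normoxia and 4527 to 11770 in hypoxia in these libraries, and Col1a1 averaged 12930 and 4962; all 11 myeloid markers were above 1 plain CPM in both groups. In bulk RNA, fewer cells of a type and less RNA per cell cannot be told apart, and the part of this shift in the values was not tested. No listed gene passed the test of the difference in hypoxia effect between BV2 and BMDM in this experiment (edgeR, 0.664% of all genes called). DESeq2 called 3 of the 10 there, and 1051 of all genes. With paired libraries the effect was lower in BV2 for Gart (-1.95), Adsl (-1.62) and Shmt2 (-1.64), with 8.14% of all genes called, 3.53% as lower.

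Co-culture was compared with growth alone at each oxygen level. It shares its groups with the hypoxia comparisons, so the values are not independent of those above. The BV2 libraries grown alone served to choose the list, so the BV2 values are a description, with no test. In hypoxia Impdh2 stood at 314 and 244 CPM alone and 198 and 182 in co-culture (log2 -0.56). Paics stood at 169 and 161 against 129 and 114 (-0.44) and Atic at 173 and 163 against 136 and 128 (-0.35).

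Mthfd2 stood at 118 and 122 CPM alone and 160 and 163 in co-culture (0.43). The groups did not overlap for these 4 genes, nor for Gart, Mthfd1 and Shmt2, so this does not set the 4 apart. For the other genes the log2 ratios of plain CPM in hypoxia were -0.304 (Gart), -0.255 (Pfas), -0.249 (Mthfd1), -0.155 (Ppat), 0.055 (Adsl) and 0.175 (Shmt2). The hypoxia effect differed most between co-culture and growth alone for Impdh2 (-0.66) and Mthfd2 (0.61).

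In GL261 none of the 10 passed for co-culture in normoxia (0.514% of all genes called) or hypoxia (1.39%), nor in the interaction (0%). In normoxia all 10 values were on the higher side in co-culture, from 0.12 for Pfas to 0.34 for Atic on the log2 scale. DESeq2 called 0 of the 10 for normoxia, hypoxia and the interaction.

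In BMDM none passed in normoxia (1.64%) or hypoxia (7.11%), nor in the interaction (0%), and DESeq2 called 0 of them. Ppat had the widest interval there, 0.57 in hypoxia (95% interval -0.24 to 1.38), and the log2 ratio of plain CPM went from 0.69 to -0.03 with the GL261 part taken off. That of Shmt2 went from 0.43 to 0.07, that of Impdh2 from 0.32 to 0.18 and that of Pfas from 0.10 to -0.15.

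Panobinostat was compared with DMSO in hypoxia, with the same DMSO libraries that entered the hypoxia comparison. In BV2 cells the 2 mitochondrial folate enzymes fell (edgeR, adjusted p below 0.05, 14.6% of all genes called, 7.39% as lower). Mthfd2 fell from 153 and 140 CPM to 53.6 and 52.8, or 2.75-fold (log2 -1.46, SE 0.22, edgeR adjusted p = 0.00453). Shmt2 fell from 143 and 210 to 62.8 and 82.0 CPM, or 2.44-fold (-1.29, SE 0.25, adjusted p = 0.0117). Both calls were lost without panobinostat library 1 (adjusted p = 0.0509 and 0.138).

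With the libraries paired by number 6 genes were lower (30.3% called, 15.5% as lower): Mthfd2 and Shmt2, and with them Impdh2 (-0.61, edgeR adjusted p = 0.0249), Mthfd1 (-0.60, 0.0237), Atic (-0.58, 0.0296) and Ppat (-0.57, 0.0403). Atic stood at 80.1 and 111 CPM with DMSO and 62.1 and 63.4 with panobinostat, and Impdh2 at 223 and 301 against 158 and 181. The 4 enzymes in between overlapped between the groups: Gart stood at 18.9 and 30.3 CPM with DMSO and 21.3 and 31.1 with panobinostat (0.09, 95% interval -0.64 to 0.83), Pfas at 0.00 (-0.64 to 0.63), Paics at 0.12 (-0.58 to 0.82) and Adsl at 0.10 (-0.47 to 0.66).

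Cell markers differed with panobinostat in BV2 as well: 5 of 11 myeloid markers fell and none rose (14.6% of all genes called, 7.39% as lower). Csf1r averaged 760 plain CPM with DMSO and 243 with panobinostat. Summed myeloid markers were 4535 to 4983 plain CPM with DMSO and 3219 to 3596 with the drug. Summed microglia markers went the other way, from 148 to 166.9 plain CPM with DMSO and 253.4 to 283.6 with the drug. The part of this in the members' values was not tested.

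In hypoxic BMDM no listed gene passed (0% of all genes called). With paired libraries Gart was higher with panobinostat (log2 1.18, edgeR adjusted p = 0.0271, 13.7% of all genes called, 7.14% as higher). DESeq2 without pairing also called 1 gene of the list, and 2221 of all genes. Gart stood at 32.4 and 37.1 CPM with DMSO and 74.2 and 83.3 with panobinostat, and at 67.1 and 93.0 in normoxia with DMSO. Impdh2 (0.64, 95% interval 0.03 to 1.26), Pfas (0.76, -0.24 to 1.76) and Mthfd1 (0.46, -0.51 to 1.42) lay on the same side without passing.

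Mthfd2 stood at 164 and 86.0 CPM with DMSO and 81.3 and 46.4 with panobinostat (-0.97, 95% interval -1.96 to 0.03), with the library numbered 1 the higher one in both. Shmt2 overlapped (-0.07). Myeloid markers summed to 4527 to 11770 plain CPM with DMSO and 1309 to 5567 with panobinostat, and Csf1r averaged 1484 and 433.2, so the groups differ in cell markers too, and the part of that in the values was not tested. The test of the difference between the panobinostat effects in BV2 and BMDM called none of the 10 (0.0251% of all genes called, 1.04% with paired libraries, 0 of the 10 with DESeq2).

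**Figure D4:**
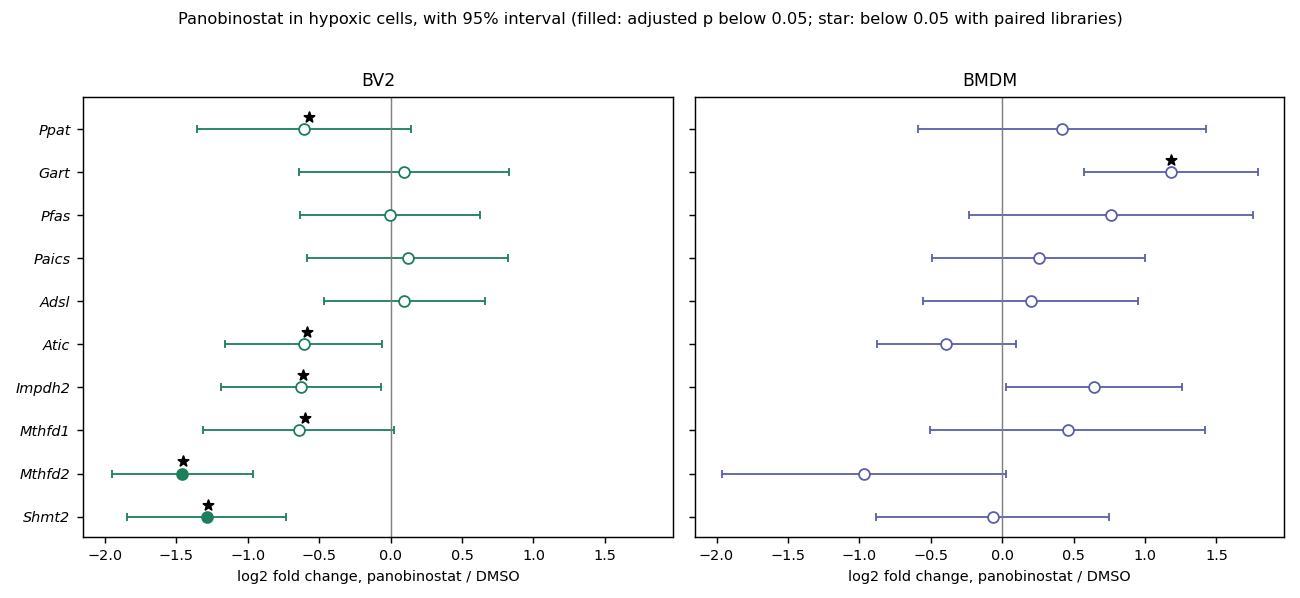
Log2 fold change of each gene between panobinostat and DMSO in hypoxic BV2 cells and BMDM, with 95% intervals from edgeR. Filled circles passed at an adjusted p below 0.05 and stars mark genes that passed with the libraries paired by number. Mthfd2 (-1.46) and Shmt2 (-1.29) are the filled points in BV2, and no point is filled in BMDM, where Gart (1.18) carries the star.

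The other genes of the pathway were taken from lists of their own, chosen like the members with earlier results known. Their counts stand beside the shares of all genes called lower and higher, which were 31.0% and 30.9% in BV2 alone, 32.1% and 35.2% in BV2 co-culture, 21.4% and 23.2% in GL261 alone, 25.6% and 26.8% in GL261 co-culture, 10.6% and 13.3% in BMDM alone, and 17.3% and 17.5% in BMDM co-culture. Of the 9 genes of PRPP supply and of the steps from IMP to AMP and GMP, 7 were lower and 2 higher in BV2 co-culture, and 7 and 2 in BV2 alone, where the values helped to choose the list. Prps1, a PRPP synthetase, fell from 89.1 to 25.9 mean CPM in co-culture (log2 -1.78, SE 0.13), and Impdh1, the other IMP dehydrogenase, rose from 39.1 to 98.3 (1.32, SE 0.13), on the opposite side from Impdh2. Impdh1 also rose in GL261 grown alone (0.50) and in BMDM alone (1.47) and in co-culture (1.52). In GL261 grown alone 2 of the 9 were lower and 2 higher, a share near that of all genes.

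Of the other folate genes, 19 were tested in BV2, and 11 fell and 7 rose in hypoxic co-culture (median log2 -0.62 against 0.04 over all genes). Aldh1l2, the mitochondrial enzyme that oxidises 10-formyl-tetrahydrofolate, rose from 15.6 to 258 mean CPM there (4.05, SE 0.21), from 139 to 768 in GL261 co-culture (2.47) and from 0.715 to 17.7 in BMDM grown alone (4.63). Gcsh, of the glycine cleavage system, fell from 136 to 22.0 mean CPM in BV2 co-culture (-2.63) and from 63.2 to 14.7 in GL261 co-culture (-2.11). Tyms, which makes thymidylate, fell in BMDM alone (-1.88) and in co-culture (-1.69). The folate carrier Slc19a1 fell in BV2 with DMSO, from 56.4 to 10.1 mean CPM (-2.48).

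Serine supply had 6 genes: 4 rose and 1 fell in GL261 alone, where Slc1a4, a neutral amino acid carrier, rose from 47.9 to 268 mean CPM (2.48), while in BV2 alone 1 was higher and 2 were lower. In hypoxic BV2 co-culture 6 of 8 pyrimidine synthesis genes fell and none rose (32.1% and 35.2% of all genes), led by Cad, the enzyme of its first steps, from 373 to 93.1 mean CPM (-2.0). Deoxynucleotide supply fell in 7 of 8 genes there, most in Dctpp1 (-2.70). In purine salvage and breakdown 8 of 13 tested genes fell and 3 rose, among them Ampd3, an AMP deaminase, from 13.2 to 59.1 mean CPM (2.16).

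Of 12 genes linked to ATF4 all rose in BV2 co-culture (median 2.62), in GL261 alone (1.92) and in GL261 co-culture (2.11), and 11 of 12 in BMDM alone and in co-culture. Trib3, a stress-induced pseudokinase, rose from 17.3 to 772 mean CPM in BV2 co-culture (5.48), and Ddit3 from 13.4 to 196 in GL261 co-culture (3.87). In BV2 with panobinostat Atf4 itself fell from 839 to 477 mean CPM (-0.82, SE 0.24, edgeR adjusted p = 0.0447). In that list 1 of 11 tested genes thus fell, a share near the 7.39% of all genes called lower. With paired libraries 7 of 11 were lower and 1 higher (30.3% of all genes called, 15.5% as lower).

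Nucleolar genes linked to Myc fell in 10 of 10 in BV2 co-culture (median -1.61), 8 of 10 in GL261 co-culture and 5 of 10 in BMDM co-culture, while Odc1, ornithine decarboxylase, rose in the latter pair (1.22 and 1.53). Replication genes fell in 12 of 12 in BV2 co-culture (median -1.52) and in BMDM alone and in co-culture (-1.29 and -1.50). In GL261 grown alone only 3 of 12 fell and 2 rose, with a median of 0.04, and Mki67, a proliferation marker, rose from 873 to 1438 mean CPM (0.72, SE 0.19). Of 10 hypoxia response genes 9 or 10 rose in BV2, GL261 and BMDM of the co-culture experiment. In BMDM with DMSO 3 ATF4-linked genes and 1 hypoxia response gene were called higher (0.469% of all genes), and no gene of the nucleolar or replication lists passed. With paired libraries 0 and 8 genes of the latter 2 lists were called, and 14.3% of all genes.

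**Figure D5:**
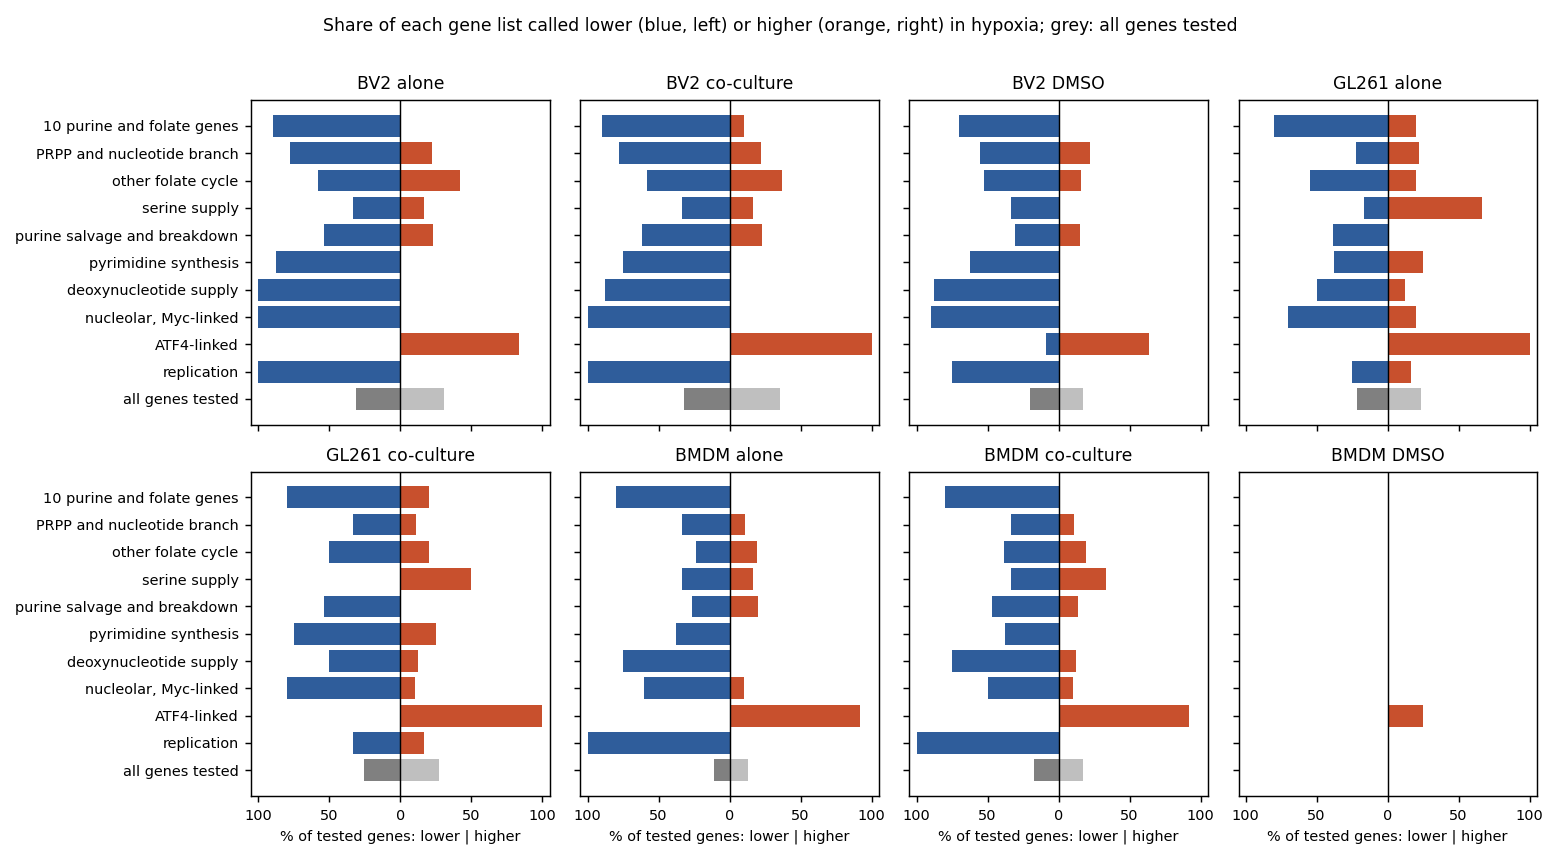
Share of the tested genes of each list that was called lower (left, blue) or higher (right, orange) in hypoxia at an edgeR adjusted p below 0.05, one panel a comparison, with all genes tested in grey. BV2 alone served to choose the 10 genes. ATF4-linked genes point right in all 8 panels, with 1 of 11 also pointing left in BV2 with DMSO, and replication genes point left with 12 of 12 in BV2 and BMDM grown alone or in co-culture.

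Across the 16 BV2 and GL261 libraries the 10 genes did not follow a single profile. Each gene is itself part of the members' mean used here, which raises its correlation. The libraries include the BV2 ones grown alone, which served to choose the list. The correlation of each gene with the mean of the members (Pearson's r over log2 CPM, n = 16 libraries that share cell line and oxygen, given as a description) was 0.987 for Gart and Adsl, 0.960 for Pfas and 0.907 for Ppat, between 0.629 and 0.781 for Atic, Paics, Impdh2 and Mthfd1, 0.270 for Shmt2 and -0.432 for Mthfd2. The genes outside the lists whose profile was most like that mean, among 7643 compared, were Set (r = 0.985), Jpt2 (0.984) and Ran (0.979). Set stood at 1141 ± 93.7 CPM in normoxic BV2 grown alone, 220.2 ± 1.29 in hypoxic BV2, 462 ± 50.2 in normoxic GL261 and 262 ± 14 in hypoxic GL261. Ran stood at 795 ± 67.6, 246 ± 26.1, 387 ± 30.5 and 259 ± 28.8 CPM in the same groups (SD, n = 2).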

How the data were processed

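Poly(A) RNA was sequenced in 38 libraries of 18 groups. The authors deposited 3 tables of raw counts per Ensembl gene; per the submitters' processing notes, Trimmomatic 0.36, STAR 2.6, HTSeq 0.9.1 and build mm10 were used, and Picard 2.17.1 for the BV2 and GL261 libraries. The annotation and strand setting are not given in the sources used here. All columns were mapped to samples by name, and 55141 of 55487 identifiers had a symbol. Counts were tested with edgeR 4.0.16 (quasi-likelihood, TMM, filterByExpr with a minimum count of 10, Benjamini-Hochberg over all genes tested), in 1 fit per cell type and experiment and in joint fits for differences between cell types. The tests were checked on simulated data.

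The members and lists were chosen with earlier results of these data known. From each pathway list the called gene with the largest rise and fall and no overlap of libraries was named, and 3 genes most like the members' mean profile. Deviations of libraries with the same number correlated at 0.154 to 0.389 in BV2 and 0.336 to 0.593 in BMDM of the panobinostat experiment. Paired values are given there beside unpaired ones, although the labels do not say that a number marks a pair. Elsewhere these correlations ran from -0.081 to 0.175 (BV2), 0.043 to 0.369 (GL261) and -0.002 to 0.455 (BMDM). The 3 pairs of normoxic and hypoxic BMDM co-cultures had 0.455, 0.244 and 0.407, so that comparison counts as paired too, and pairing changed no call of a listed gene there. None of 22 replicate pairs was identical. Partner transcripts were estimated from genes of at least 20 CPM in the partner and 100-fold lower in the cell. Alternatives were DESeq2 1.42.0, other scalings and filters, the replicate block, only the groups compared and leaving out each library. Sequences are from RefSeq, GRCm38.p6, and gene positions from GENCODE on GRCm38.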

Additional observations from a re-analysis of the deposited data

Results flagged for a closer look

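The test of the difference in hypoxia effect between BV2 and GL261 cells in co-culture (edgeR, adjusted p below 0.05) picked out 5 of the 10 genes, given as the log2 fold change in BV2 minus that in GL261. They were Gart (-1.91), Adsl (-1.41), Shmt2 (-1.38), Pfas (-1.16) and Ppat (-0.59), against 37.0% of all genes called. Ppat was no longer called without hypoxic BV2 co-culture library 2 (-0.38, adjusted p = 0.193).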

How the results depend on the processing

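Of 3190 alternative values for the 10 genes over all comparisons, 148 were counted as having the opposite sign, and 0 of these belonged to a called value. The cause was not tested. With the partner part taken off, only sign changes of called values were counted, so the count misses some. Ppat in BMDM co-culture in hypoxia, for example, went from 0.694 to -0.031 in plain CPM. Leaving out 1 library, log2 fold changes that changed sign ranged from -0.37 to 0.003 for Mthfd2 in BV2 hypoxia alone, -0.34 to 0.12 for Shmt2 in BMDM co-culture hypoxia, -0.51 to 0.042 for Impdh2 and -0.43 to 0.065 for Mthfd2 in BV2 with DMSO, and -0.53 to 0.013 for Atic in the line difference alone. For panobinostat they ranged in BV2 from -0.22 to 0.47 for Gart, -0.37 to 0.46 for Pfas, -0.28 to 0.65 for Paics and -0.11 to 0.31 for Adsl, and in BMDM from -0.11 to 0.63 for Adsl and -0.51 to 0.28 for Shmt2. Shmt2 in BMDM co-culture hypoxia was 0.095 without both libraries numbered 3, an alternative chosen after seeing the data, as were the removal of the partner part and the line difference in co-culture. Pfas with panobinostat in BV2 was 0.084 with library totals alone, 0.038 with a mean of at least 5 CPM and 0.022 with the replicate block, and Shmt2 in BMDM was 0.23 with library totals alone.

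Counts of genes called over all genes moved as follows. With a mean of at least 5 CPM they were 1245 (BV2 co-culture in normoxia), 1461 (BV2 co-culture in hypoxia), 11 (GL261 co-culture in normoxia), 70 and 313 (BMDM co-culture in normoxia and hypoxia), 53 (BMDM panobinostat) and 247 (hypoxia, BV2 against BMDM). With no filter beyond 1 count they were 266, 601 and 33 (GL261 co-culture in normoxia, in hypoxia and interaction), 513 and 1 (BMDM co-culture in normoxia and interaction), 532 (BMDM hypoxia with DMSO), 594 (BMDM panobinostat), 335 and 35 (hypoxia and panobinostat, BV2 against BMDM). DESeq2 gave 566 (BV2 interaction), 162, 433 and 32 (GL261 co-culture in normoxia, in hypoxia and interaction), 634, 1733 and 9 (the same in BMDM), 2241 and 2221 (BMDM hypoxia with DMSO and panobinostat), 1051 and 224 (hypoxia and panobinostat, BV2 against BMDM). With only the groups compared they were 124 and 20 (GL261 co-culture in normoxia and hypoxia), 6289 and 231 (BMDM hypoxia alone and co-culture in hypoxia), 0 (BMDM hypoxia with DMSO), 1 and 2 (hypoxia and panobinostat, BV2 against BMDM). Library totals alone gave 18 for BMDM hypoxia with DMSO and 45 for hypoxia in BV2 against BMDM, and DESeq2 size factors in edgeR gave 66 for BMDM panobinostat. Library totals alone moved the median of all genes from -0.03 to 0.26 for BMDM panobinostat and from 0.03 to -0.21 for BMDM hypoxia alone.

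The replicate block, which uses the shared replicate numbers, gave 226 and 654 genes for GL261 co-culture in normoxia and hypoxia and 432 for BMDM co-culture in normoxia. The correlations there were 0.177 and 0.369 in GL261 and 0.165 and 0.224 in BMDM. Other correlations were as low as 0.043 in GL261 and -0.002 in BMDM, so the numbers were not taken as pairing in these comparisons. Normoxic against hypoxic BMDM co-culture was the exception, with correlations of 0.455, 0.244 and 0.407. Values printed for it are unpaired, and pairing changed no listed call there. In the panobinostat experiment all correlations were over 0.1, and pairing was assumed. With 2 pairs per comparison, there too, the correlations cannot settle whether a number marks a pair. In the panobinostat experiment the block gave 4025 (BV2 panobinostat), 2127 and 2044 (BMDM hypoxia and panobinostat), 1298 and 166 (hypoxia and panobinostat, BV2 against BMDM). The block called 6 of the 10 genes for BV2 panobinostat, 4 for BMDM hypoxia with DMSO, 1 for BMDM panobinostat and 3 for hypoxia in BV2 against BMDM. DESeq2 called 4, 1 and 3 of the 10 in the last 3. In that experiment the block changed no listed call beside those given in the report. Outside it, no listed call changed in a comparison without the BV2 libraries grown alone. Those libraries served to choose the list, so calls of listed genes in the BV2 interaction are not given. Impdh2 there was -0.66 with the block, as a description.

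Leaving out 1 library gave a range of 5 to 7 listed genes called for BMDM hypoxia alone. The range was 0 to 2 for BV2 panobinostat and 0 to 2 for hypoxia in BV2 against BMDM. Ranges for BV2 co-culture in hypoxia and the BV2 interaction are not given, since both use libraries that served to choose the list. Over all genes the ranges were 451 to 1714 (BV2 co-culture in normoxia), 59 to 682 (BV2 interaction), 1 to 15 and 74 to 329 (GL261 co-culture in normoxia and hypoxia), 1288 to 1567 (BMDM hypoxia alone), 3 to 288 and 4 to 1792 (BMDM co-culture in normoxia and hypoxia), 0 to 1 (BMDM interaction), 2920 to 4758 (BV2 hypoxia with DMSO), 292 to 1342 (BV2 panobinostat), 0 to 611 (BMDM hypoxia with DMSO), 0 to 1203 and 0 to 82 (hypoxia and panobinostat, BV2 against BMDM). Where this left 1 library in a group, that library was assumed to vary like the other groups. On simulated counts the BV2 fit recovered 99% of 100 genes changed by 1 on the log2 scale among 14432, and the fit of BMDM hypoxia with DMSO 0% at 1 and 24% at 2 among 14914.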

Other observations

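The Myc network list holds Myc itself, its partner Max and the Mxd and related proteins that compete for Max. Of its genes tested, 6 of 8 rose and 1 fell in hypoxic BV2 cells from co-culture (edgeR, adjusted p below 0.05, 35.2% of all genes higher and 32.1% lower). In GL261 from co-culture 7 of 9 rose and 1 fell (26.8% and 25.6% of all genes), and in BMDM from co-culture 5 of 9 rose and 2 fell (17.5% and 17.3%). Mxd1 had the largest rise in the co-cultured lines (log2 3.50 in BV2 and 1.91 in GL261) and Mxd3 the largest fall (-1.69 and -2.65). In BMDM from co-culture these were Mxi1 (2.33) and Mycl (-2.33).

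Beside Mthfd2 and Shmt2, other genes of nucleotide and folate metabolism were lower with panobinostat in hypoxic BV2 cells. Mthfd1l, the mitochondrial enzyme that releases formate, stood at -1.49 on the log2 scale (SE 0.20, edgeR adjusted p = 0.00319), while Mthfd2l, the paralog of Mthfd2, rose by 1.42 (SE 0.35, edgeR adjusted p = 0.0254). Of the other folate genes 2 of 19 fell and 3 rose, and with paired libraries 8 fell and 3 rose (all genes 7.39% lower and 7.21% higher, and paired 15.5% and 14.7%). Cad of pyrimidine synthesis fell by 1.74 and Rrm2, a subunit of ribonucleotide reductase, by 1.89 on the log2 scale. Of 12 replication genes 5 fell, and 9 with paired libraries. In the same libraries 2 of 2 tested glial and glioma markers were called higher, beside the 5 myeloid markers that fell. All 10 glial and glioma markers together summed to only 1.045 to 1.655 plain CPM with DMSO and 6.25 to 8.712 with the drug. In GL261 libraries they summed to 1660 to 2965. Summed microglia markers were higher with the drug, and the part of these shifts in the values was not tested.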
